A study of Mus musculus with 66 samples.

Results

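The p53 target genes followed here are Trp53, which encodes p53, and 9 genes that p53 is known to switch on: Mdm2, Ccng1, Cdkn1a, Btg2, Bax, Bbc3, Trp53inp1, Phlda3 and Sesn1. They were found by gene symbol in the 3'READS table of poly(A) (pA) sites and in the RNA-seq table of gene counts from C2C12 mouse myoblasts depleted of single subunits of the Paf1 complex (Paf1C). All 10 were among the 15777 genes with sense pA sites in 3'READS, and 5 of them (Mdm2, Ccng1, Cdkn1a, Bbc3 and Trp53inp1) were among the 9999 genes of the RNA-seq table. The 10 genes held 34 of the 59578 pA sites listed, made up of 26 in 3'-most exons, 6 intronic ones, 1 within an internal exon and 1 on the antisense strand upstream of Ccng1.

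p53 is a transcription factor that is kept low in unstressed cells, chiefly because the ubiquitin ligase Mdm2, itself a p53 target, marks it for degradation. When p53 accumulates, it activates genes that halt the cell cycle, such as Cdkn1a (the cyclin-dependent kinase inhibitor p21) and Btg2, genes that promote apoptosis, such as Bax and Bbc3 (Puma), and genes that feed back on p53 or on stress signalling, such as Ccng1, Trp53inp1, Phlda3 and Sesn1. Cdkn1a is also known to be switched on when myoblasts leave the cell cycle to differentiate. Since p53 is mostly controlled as a protein, the RNA of Trp53 says little about p53 activity, and no protein was measured in these data.

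C2C12 is an established line of mouse muscle precursors. The cells were transfected for 48 h with siRNA at 50 nM, either a non-specific control (siCtrl) or one against Paf1, Cdc73 or Ski8, a Paf1C subunit listed under the symbol Wdr61, and all libraries came from cells in the myoblast state. Each assay had 7 libraries: siCtrl, siPaf1 and siCdc73 in batch 1 and in batch 2, and siSki8 in batch 2 only. A batch is what the labels call it, and whether the batches were separate cultures is not given. The p-values refer to a spread between these libraries that was pooled over genes. The siSki8 values have no replicate, so their tests assume that this library varied like the others, and siPaf1, siCdc73 and siSki8 were all compared with the same siCtrl libraries.

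RNA-seq libraries held between 2796693 and 8160386 reads over genes, and 3'READS libraries between 5290791 and 14311581 sense PASS reads, which are reads whose non-genomic Ts mark the end of a poly(A)+ transcript. Levels are given as CPM, counts relative to a library size scaled by the TMM method. They were tested with edgeR's quasi-likelihood test over 6521 genes in RNA-seq and 12579 in 3'READS, with Benjamini-Hochberg adjustment over all of them, and a gene was counted as changed at an adjusted p under 0.05. The batches differed widely: the biological coefficient of variation was 0.397 in RNA-seq and 0.515 in 3'READS, and 0.179 and 0.247 once the batch entered the fit as a block. The fit without the block was the planned main model, and in it 0 of these genes passed. Fold changes and adjusted p-values below are with the batch as a block, planned as an alternative, unless stated. Without the block the lowest edgeR adjusted p of the followed genes was 0.557 under siPaf1 and 0.208 under siCdc73 in 3'READS. In RNA-seq it was 0.197 and 0.194. With so few libraries, edgeR estimates the spread of a gene largely from all genes tested. Small adjusted p-values thus do not measure how well that gene repeated. The siPaf1 3'READS library of batch 2 held 271 genes over 20-fold above every other library, with 0 of the 10 genes among them. The siRNA targets stood lowest under their own siRNA, in RNA-seq at 20.3 and 31.1 CPM for Paf1 in siPaf1, at 14.2 and 22.0 for Cdc73 in siCdc73 and at 5.97 for Wdr61 in siSki8. Of the myoblast markers, Des and Cdh15 were present in all libraries, Cdh15 at 32.1 to 707 unscaled CPM in 3'READS, while Myod1 lay between 0 and 0.598 unscaled CPM in the 3'READS libraries.

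Trp53inp1, a stress-induced p53 target whose product promotes cell cycle arrest and cell death, showed the main change in 3' end use. It lies on the plus strand of chromosome 4 (mm9), and its 6 pA sites are all assigned to the last of its 4 exons or just past it. The 30 bases of reference sequence that end at each site, 5' to 3', are shown because the sites gained and lost under siPaf1 differ in them. Capitals mark the poly(A) signal AATAAA.
Trp53inp1, 99 bases after the stop codon, chr4:11097176-11097205: gaaagtgctgtctccttccagccaagtgaa
Trp53inp1, 555 bases after, chr4:11097632-11097661: ttttgaaagaaaacttgacatatttctgta
Trp53inp1, 2864 bases after, chr4:11099941-11099970: tacatagctacttaaagctcgccatactta
Trp53inp1, 3082 bases after, chr4:11100159-11100188: gtgtttacttaaaatgtgtgagggttcata
Trp53inp1, 4420 bases after, chr4:11101497-11101526: tgtcagtaAATAAAatgtcctttaacttaa
Trp53inp1, 5257 bases after, chr4:11102334-11102363: catgAATAAAacttcagtttttcattaaaa
The last of these sites lies 837 bases past the annotated end of the transcript. Both distal windows hold AATAAA, and none of the 4 upstream windows holds AATAAA or ATTAAA, the next most common signal. For comparison, 47.7% of 23999 sites in 3'-most exons with at least 20 reads held AATAAA in the same window and a further 15.7% only ATTAAA. The 10 bases after the 4 upstream sites held between 0 and 3 A, against a median of 1 over all such sites, and 1.00% of all such sites had 6 or more.

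The distal site 4420 bases after the stop codon collected 413 and 593 reads with siCtrl (batch 1, then batch 2, as throughout), 335 and 339 under siPaf1, 100 and 199 under siCdc73 and 162 under siSki8. The site 555 bases after the stop codon had 4 and 21 reads in siCtrl, 161 and 426 under siPaf1, 36 and 72 under siCdc73 and 6 under siSki8. Reads at the proximal site were thus few in siCtrl and siSki8 and many in both siPaf1 libraries, although the siPaf1 library of batch 2 was also deeper. The 4 upstream sites combined held 9 of 465 reads of the gene in siCtrl batch 1, a share of 1.94% (95% Wilson interval 1.02% to 3.64%), and 28 of 791, or 3.54% (2.46% to 5.07%), in batch 2. Under siPaf1 they held 345 of 732 reads, or 47.1% (43.5% to 50.8%), and 739 of 1181, or 62.6% (59.8% to 65.3%). Under siCdc73 the share was 31.8% (25.0% to 39.5%) of 154 reads and 27.5% (23.1% to 32.3%) of 364 reads, and under siSki8 5.08% (2.78% to 9.09%) of 197 reads. These intervals cover counting error only. The siPaf1, siCdc73 and siCtrl libraries did not overlap in this share, and the siSki8 library lay just above siCtrl with an interval that overlapped both of theirs.

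**Figure D1:**
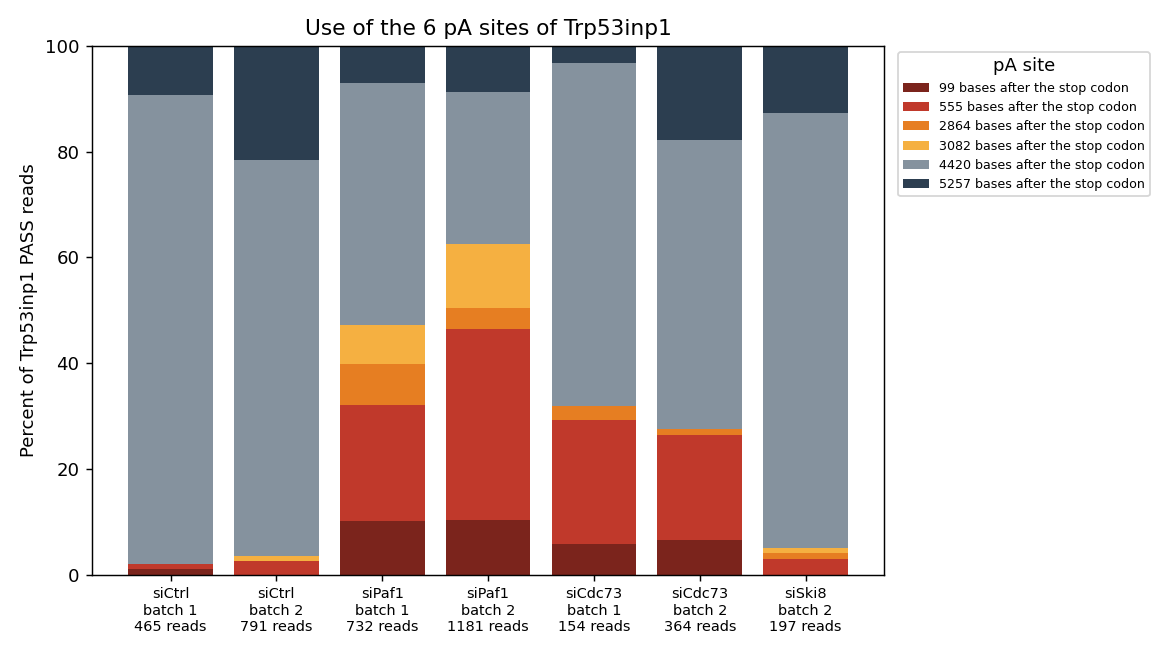
Each bar is 1 3'READS library and shows the percent of the Trp53inp1 PASS reads at each of its 6 pA sites, named by the distance from the stop codon in bases, with the number of reads under the bar. The 4 upstream sites take 1.94% and 3.54% in siCtrl, 47.1% and 62.6% under siPaf1, 31.8% and 27.5% under siCdc73 and 5.08% under siSki8.

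For the test of 3'UTR-APA, alternative polyadenylation within the 3'UTR, the 2 last-exon sites of a gene with the most reads over all 7 libraries were compared. For Trp53inp1 these are the sites 555 and 4420 bases after the stop codon, 3865 bases apart. In siCtrl alone the second most used site was the one at 5257 bases, with 43 and 170 reads against 4 and 21 at 555 bases. The site at 555 bases entered the pair through its siPaf1 reads, so the choice of pair favoured a rise under siPaf1. The log2 ratio of proximal to distal reads rose by 5.23 under siPaf1 (standard error, SE, 0.59, edgeR adjusted p = 1.44e-12) and by 4.08 under siCdc73 (SE 0.61, edgeR adjusted p = 1.66e-07). Under siSki8 it differed by 0.37 (SE 0.98, edgeR adjusted p = 1). Without the block the values were 5.24, 4.13 and 0.87, with adjusted p of 0.555, 1 and 1. Ordered by p among the 4567 genes tested, Trp53inp1 had rank 1 under siPaf1 and rank 5 under siCdc73, and without the block rank 1 and rank 4. With the block the ratio remained past the threshold whichever single library was left out, between 4.79 and 5.93 under siPaf1 and between 3.45 and 4.96 under siCdc73. Of the 4 genes here with such a pair of sites, 2 passed under siPaf1, 1 under siCdc73 and 0 under siSki8, against 6.79%, 4.29% and 0.307% of all genes tested. The genes were chosen with earlier results of these data known, and the 3'UTR switch of Trp53inp1 was part of that choice. The rank of Trp53inp1 and these counts are thus a description only. Without the block 0 of the 4567 genes passed for any siRNA, while 229, 192 and 58 had an unadjusted p under 0.05.

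Site by site, each was compared with the gene's other sites that held at least 5% of its reads. Tested in this way, 3 of the 4 upstream Trp53inp1 sites rose under siPaf1. The log2 changes were 4.83 at the site 99 bases after the stop codon, 4.63 at 555 bases and 4.61 at 3082 bases (edgeR adjusted p = 4.91e-10, 2.11e-13 and 2.52e-09). All 3 calls held without any 1 library, although the first moved to 9.60 without the siCtrl library of batch 1, which left 0 siCtrl reads at that site. The fourth, at 2864 bases, held under 5% of the reads of the gene over all libraries and was not tested. It had 0 reads in both siCtrl libraries and 56 and 48 under siPaf1. The sites at 99 and 3082 bases met this 5% filter only through their siPaf1 reads. They had 5 and 0, and 0 and 7, reads in siCtrl, so the filter favoured a rise under siPaf1. Under siCdc73 the 2 sites nearest the stop codon rose, by 4.03 and 3.96 (edgeR adjusted p = 9.06e-06 and 2.37e-09), and the site at 3082 bases had 0 reads in both siCdc73 libraries against 54 and 143 under siPaf1. The call at 99 bases under siCdc73 was lost without the siCtrl library of batch 2 (log2 change 2.61, edgeR adjusted p = 0.204). The main distal site fell by 2.90 under siPaf1 and by 1.61 under siCdc73 on the log2 scale (edgeR adjusted p = 6.32e-07 and 0.0260), the latter lost when any 1 of the 4 libraries compared was left out. The most distal site did not pass after either siRNA (log2 change -0.90 and -0.67, edgeR adjusted p = 0.322 and 0.586). Of the 18 sites of these genes that were tested, 5 passed under siPaf1, 5 under siCdc73 and 0 under siSki8, where 8.79%, 7.4% and 0.0674% of all 16317 sites did. The siPaf1 calls lay in Trp53inp1 and Ccng1 only, and the siCdc73 calls in Trp53inp1 and Sesn1 only. Sites of the same gene are not independent, since a gain at one lowers the share of the rest, so these are not separate calls. Without the block 0 of the 18 passed edgeR's test in any comparison, against 7, 14 and 0 of all sites (0.0429%, 0.0858% and 0%), and 6, 5 and 0 of the 18 had an unadjusted p under 0.05.

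The read-weighted mean length of the Trp53inp1 3'UTR followed from these counts. It was 4418 and 4485 bases in siCtrl, 2975 and 2427 under siPaf1, 3251 and 3503 under siCdc73 and 4379 under siSki8. Both siPaf1 and both siCdc73 libraries were shorter than every siCtrl library, and the siPaf1 libraries were the shortest.

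The total level of Trp53inp1 depended on the siRNA and on the assay. In 3'READS it stood at 69.8 and 74.8 CPM in siCtrl, 94.5 and 78.1 under siPaf1, 33.4 and 25.8 under siCdc73 and 22.4 under siSki8. The siPaf1 libraries lay just above siCtrl, and the siCdc73 and siSki8 libraries lay far below it. The log2 change was 0.24 under siPaf1 (SE 0.27, edgeR adjusted p = 0.569), -1.31 under siCdc73 (0.28, edgeR adjusted p = 0.00387) and -1.61 under siSki8 (0.38, edgeR adjusted p = 0.0985). The siCdc73 call also passed in DESeq2 without the block (adjusted p = 0.0378) and was lost with the block without the siCtrl library of batch 2 (log2 change -1.09, edgeR adjusted p = 0.0770) or the siCdc73 library of batch 2 (-1.18, edgeR adjusted p = 0.0561). By sites, the 4 upstream sites together stood at 1.35 and 2.65 CPM in siCtrl and 44.5 and 48.9 under siPaf1, and the main distal site at 62.0 and 56.1 CPM in siCtrl and 43.2 and 22.4 under siPaf1. Under siCdc73 the upstream sites stood at 10.6 and 7.10 CPM and the main distal site at 21.7 and 14.1. The main distal site was thus lower than in siCtrl in all 4 of these libraries, and upstream ends were higher, far more so under siPaf1. The most distal site stood at 6.45 and 16.1 CPM in siCtrl, 6.71 and 6.81 under siPaf1 and 1.09 and 4.61 under siCdc73.

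In RNA-seq, which the authors counted over the coding region so that 3'UTR length does not enter, Trp53inp1 stood at 36.5 and 14.5 CPM in siCtrl, 86.0 and 66.3 under siPaf1, 27.4 and 15.6 under siCdc73 and 4.80 under siSki8. Both siPaf1 libraries lay above every other library and siSki8 below. Trp53inp1 rose under siPaf1 by 1.68 on the log2 scale (SE 0.29, edgeR adjusted p = 3.39e-05), with 1.23 in batch 1 and 2.17 in batch 2. It fell by 1.88 under siSki8 (SE 0.44, edgeR adjusted p = 0.00981), and the siPaf1 call held without any 1 of the 7 libraries and the siSki8 call without any 1 of the other 6, the single siSki8 library being always kept. Under siCdc73 the change was -0.19 (SE 0.29, edgeR adjusted p = 0.633), with -0.41 in batch 1 and 0.11 in batch 2. The rise under siPaf1 was thus past the threshold in RNA-seq and not in 3'READS, and the fall under siCdc73 in 3'READS and not in RNA-seq. The difference between the assays was not tested. Tubb3, a neuronal tubulin gene in the list of markers of other cell types, moved with siPaf1 in 3'READS, at 73.5 and 161 unscaled CPM in siCtrl and 535 and 652 under siPaf1, while Ptprc, Sox10 and Pecam1, which define other lineages, stayed at or below 0.513 in every 3'READS library. Kdr, an endothelial receptor, stood in 3'READS at 20.1 and 29.8 in siCtrl, 2.56 and 16.6 under siPaf1, 3.40 and 5.73 under siCdc73 and 2.41 under siSki8. In RNA-seq Kdr stood at or below 0.343 unscaled CPM in every library. The 11 listed markers of that list summed to 107 and 195 in siCtrl, 556 and 681 under siPaf1, 215 and 150.2 under siCdc73 and 207 under siSki8. Tubb3 made up most of this sum in every library. Over the 5 listed in RNA-seq, where Tubb3 was not listed, the sums were 18.0 and 11.5 in siCtrl and 22.4 and 15.7 under siPaf1. They were 7.91 and 2.80 under siCdc73 and 3.80 under siSki8. The part of these markers in the result was not tested. In bulk RNA, fewer cells of a type and less RNA per cell cannot be told apart. Per length, in the authors' RPKM for RNA-seq, Trp53inp1 (20.4 and 7.65 in siCtrl) stood below Cdkn1a (318 and 222), Ccng1 (79.7 and 62.0) and Mdm2 (65.5 and 60.8) and above Bbc3 (4.25 and 2.20), and Ccng1 and Mdm2 overlapped. In the direct comparison Trp53inp1 was higher under siPaf1 than under siCdc73 in both assays, by 1.87 in RNA-seq (edgeR adjusted p = 2.44e-05) and by 1.55 in 3'READS (edgeR adjusted p = 0.00231).

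**Figure D2:**
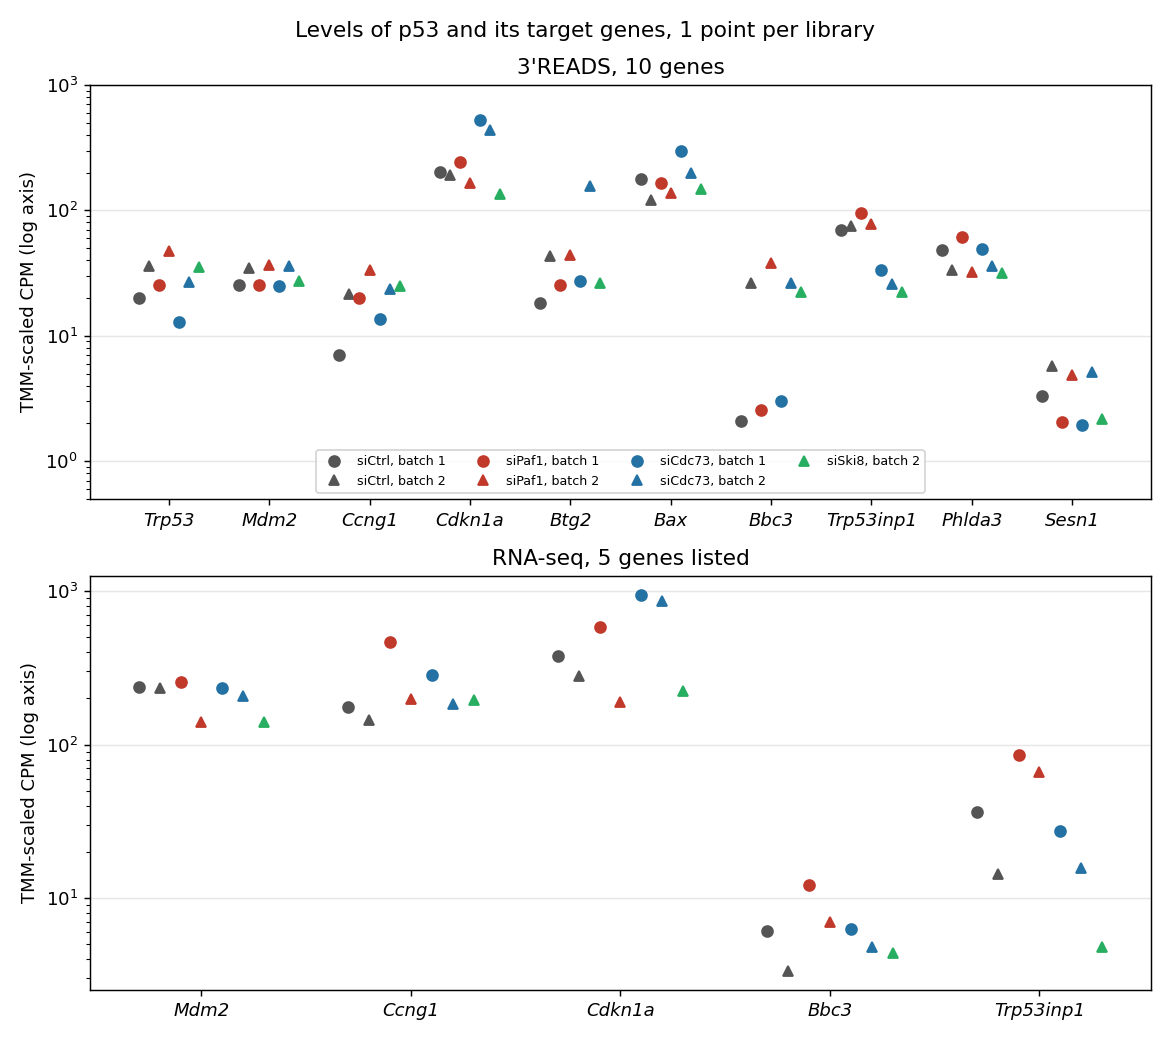
Each point is 1 library and gives the TMM-scaled CPM of a gene on a log axis, in 3'READS above and RNA-seq below, with circles for batch 1, triangles for batch 2 and colours for the siRNA. Cdkn1a is highest in both siCdc73 libraries of either assay, at 521 and 439 CPM in 3'READS, and Bbc3 splits by batch in 3'READS.

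Cdkn1a, which halts the cell cycle, rose in both assays under siCdc73, while Btg2 was listed in 3'READS only. The single pA site of Cdkn1a lies on the plus strand of chromosome 17 at position 29237667, 1329 bases after the stop codon in exon 3 of 3, and carries AATAAA.
Cdkn1a, chr17:29237638-29237667: ctggtgctcAATAAAtacttctcgatgatt
In 3'READS Cdkn1a stood at 202 and 190.1 CPM in siCtrl, 244 and 165 under siPaf1, 521 and 439 under siCdc73 and 136 under siSki8. In RNA-seq the levels were 379 and 280.4 CPM in siCtrl, 581 and 190.5 under siPaf1, 951 and 860.2 under siCdc73 and 223 under siSki8. In each assay both siCdc73 libraries lay above all others, and the siPaf1 libraries lay on either side of siCtrl. The log2 change under siCdc73 was 1.28 in 3'READS (SE 0.27, edgeR adjusted p = 0.00352) and 1.49 in RNA-seq (SE 0.26, edgeR adjusted p = 3.94e-05). Within batches it was 1.36 and 1.21 in 3'READS and 1.32 and 1.62 in RNA-seq. DESeq2 without the block also called the rise in 3'READS (adjusted p = 0.0258) but not in RNA-seq (0.0666). Without the siCtrl library of batch 1 the 3'READS change was 1.13 (edgeR adjusted p = 0.0627), while the RNA-seq call held without any 1 library.

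Under siPaf1, Cdkn1a changed by 0.04 in 3'READS and 0.10 in RNA-seq on the log2 scale (SE 0.27 and 0.26, edgeR adjusted p = 0.944 and 0.808). In RNA-seq the batches differed in sign, with 0.61 in batch 1 and -0.56 in batch 2. Set directly against siCdc73, siPaf1 libraries were lower in Cdkn1a, with log2 changes of -1.25 in 3'READS and -1.39 in RNA-seq (edgeR adjusted p = 0.00729 and 0.000276). Both calls were lost without the siCdc73 library of batch 2, with log2 changes of -1.19 and -0.98 (edgeR adjusted p = 0.0581 and 0.0707). Leaving out siPaf1 batch 2 moved the RNA-seq change to -0.79, and leaving out siPaf1 batch 1 moved it to -2.11. Under siSki8 the change was -0.39 in 3'READS and -0.20 in RNA-seq (edgeR adjusted p = 0.742 and 0.781). Muscle differentiation markers, summed over 10 genes in 3'READS, stood at 131 and 305 unscaled CPM in siCtrl, 232 and 613 under siPaf1, 79.4 and 293 under siCdc73 and 278 under siSki8. They were slightly to clearly lower in the siCdc73 libraries, where Cdkn1a was highest, than in siCtrl of the same batch. Over the 5 of them in RNA-seq the sums were 34.7 and 158 in siCtrl and 24.5 and 194 under siCdc73, so the batches differed in direction there. The summed level of the myoblast markers was lower in the siCdc73 libraries in both assays. Over 10 genes in 3'READS it was 2062 and 2055 in siCtrl and 1314 and 932 under siCdc73. Over 6 in RNA-seq it was 2458 and 2963 against 1378 and 1566. Under siPaf1 these sums were 2159 and 2258 in 3'READS and 2421 and 2918 in RNA-seq, but single markers moved in opposite directions. Des was higher and Cdh15, Vcam1 and Cd34 were lower in every siPaf1 library than in siCtrl of the same batch. In RNA-seq Des stood at 780 and 1455 in siCtrl and 1513 and 2027 under siPaf1. Cdh15 stood at 884 and 1035 in siCtrl and 397 and 641 under siPaf1 there. Mcam, listed in 3'READS only, stood at 2.71 and 2.45 in siCtrl and 27.6 and 41.2 under siPaf1. Des and Cdh15 made up most of each sum, and both were lower in every siCdc73 library than in siCtrl of the same batch. The markers did not all fall under siCdc73. Myf5 was higher in every siCdc73 library than in siCtrl of the same batch, in RNA-seq at 80.1 and 95.5 against 60.2 and 64.6. Itga7, listed in 3'READS only, was higher in batch 1 and lower in batch 2. The part of either set of markers in the siCdc73 changes of Cdkn1a and Trp53inp1 was not tested.

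Btg2, an antiproliferative regulator of transcription and mRNA decay, stood at 18.3 and 43.4 CPM in siCtrl, 25.4 and 44.2 under siPaf1, 27.6 and 157 under siCdc73 and 26.4 under siSki8 in 3'READS. The siCdc73 library of batch 2 lay far above the others. Btg2 rose under siCdc73 by 1.33 on the log2 scale (SE 0.36, edgeR adjusted p = 0.0146), with 0.59 in batch 1 and 1.85 in batch 2. Without the siCdc73 library of batch 2 the change was 0.45 (edgeR adjusted p = 0.577), and without the siCtrl library of batch 2 it was 1.10 (edgeR adjusted p = 0.119). The upstream sites of Btg2 held between 0.787% and 5.99% of its reads, the highest in siPaf1 batch 2.

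Ccng1, cyclin G1, recruits a phosphatase to Mdm2 and so feeds back on p53. Of the 5 genes listed in both assays, Ccng1 was the only one whose rise under siPaf1 passed the threshold in both. In 3'READS it stood at 7.05 and 21.4 CPM in siCtrl, 19.9 and 33.7 under siPaf1, 13.7 and 23.6 under siCdc73 and 25.0 under siSki8. Each siPaf1 library lay above the siCtrl library of its own batch, but siPaf1 batch 1 lay below siCtrl batch 2. In RNA-seq the levels were 175 and 144 CPM in siCtrl, 468 and 198 under siPaf1, 286 and 184 under siCdc73 and 195 under siSki8. All 5 depleted libraries lay above both siCtrl libraries there. The log2 change under siPaf1 was 1.02 in 3'READS (SE 0.32, edgeR adjusted p = 0.0362) and 0.95 in RNA-seq (SE 0.24, edgeR adjusted p = 0.00329). It was 1.47 and 0.65 in the batches of 3'READS and 1.41 and 0.46 in those of RNA-seq. Both calls depended on single libraries. In RNA-seq the call was lost without the batch 1 library of siCtrl (0.64, edgeR adjusted p = 0.189) or of siPaf1 (0.56, edgeR adjusted p = 0.0536), and in 3'READS without siCtrl of batch 1 (0.66, edgeR adjusted p = 0.366) or batch 2 (1.48, edgeR adjusted p = 0.0514) or siPaf1 of batch 1 (0.82, edgeR adjusted p = 0.0870). Under siCdc73 the changes were 0.48 and 0.52 (edgeR adjusted p = 0.311 and 0.0858).

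Ccng1 lies on the minus strand of chromosome 11 and also had more of its reads at upstream sites under siPaf1. Its main distal site is 2316 bases after the stop codon. The other site of the compared pair is 605 bases upstream of it, and of the 5 upstream sites 3 have neither AATAAA nor ATTAAA in their window, while those at 1404 and 1340 bases have ATTAAA and AATAAA, in capitals below.
Ccng1, 2316 bases after the stop codon, chr11:40562054-40562083: acacctttcAATAAAatgattgaaatgcaa
Ccng1, 1711 bases after, chr11:40562659-40562688: aaatttgtcagaactgctgcttcaatctaa
Ccng1, 1404 bases after, chr11:40562966-40562995: aggtggtATTAAAaatggtaaactgcttaa
Ccng1, 1340 bases after, chr11:40563030-40563059: AATAAAactgtgaaccttcattctaaagtt
Ccng1, 120 bases after, chr11:40564250-40564279: aatataaagaatatgggatgaaaacataaa
Ccng1, 28 bases after, chr11:40564342-40564371: agttgataaatctggttgttattctctgta
The 10 bases after the sites at 120 and 28 bases held 5 and 6 A, and 1.00% of all 3'-most exon sites had 6 or more, so these 2 ends lie at A-rich stretches of the genome. Over its 5 last-exon sites upstream of the main one, Ccng1 had 10 of 47 reads in siCtrl batch 1, or 21.3% (95% Wilson interval 11.99% to 34.9%), and 47 of 226, or 20.8% (16.0% to 26.6%), in batch 2. Under siPaf1 the share was 55.8% (48.0% to 63.5%) of 154 reads and 54.6% (50.3% to 58.9%) of 509 reads. Under siCdc73 it was 47.6% (35.8% to 59.7%) of 63 reads and 34.6% (29.7% to 39.9%) of 332 reads, and under siSki8 35.0% (29.0% to 41.5%) of 220 reads. All 5 depleted libraries had a higher share than both siCtrl libraries.

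The log2 ratio of proximal to distal Ccng1 reads, at 1711 against 2316 bases after the stop codon, rose by 2.61 under siPaf1 (SE 0.79, edgeR adjusted p = 0.0232). It was lost without siCtrl of batch 1 (2.22, edgeR adjusted p = 0.274) or batch 2 (3.81, edgeR adjusted p = 0.416) or siPaf1 of batch 2 (2.25, edgeR adjusted p = 0.506). Under siCdc73 the ratio differed by 1.93 (SE 0.81, edgeR adjusted p = 0.200) and under siSki8 by 1.15 (0.94, edgeR adjusted p = 0.844). Only 1 and 19 siCtrl reads ended at the proximal site, which limits this comparison. The other 2 genes with such a pair, Mdm2 and Phlda3, did not pass, with differences of -0.59 and 0.26 under siPaf1 and 0.13 and 1.12 under siCdc73 (edgeR adjusted p = 0.709, 0.867, 0.961 and 0.338). The median of all 4567 genes in the same fit was 0.30 under siPaf1, 0.41 under siCdc73 and 0.40 under siSki8.

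**Figure D3:**
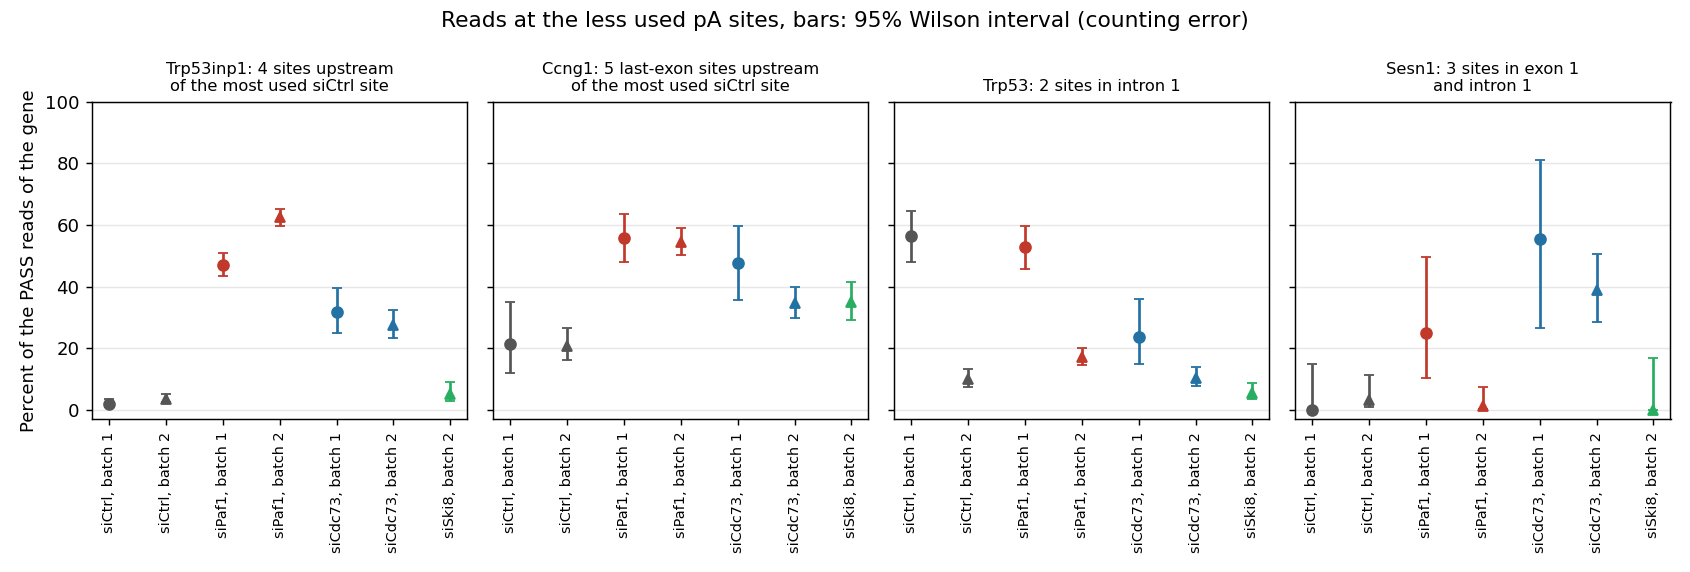
Each point is the percent of a gene's PASS reads at the named group of pA sites in 1 3'READS library, with its 95% Wilson interval, which covers counting error only, circles for batch 1 and triangles for batch 2. Upstream sites of Trp53inp1 and Ccng1 are used more in siPaf1 and siCdc73 libraries than in siCtrl, the intronic share of Trp53 differs between batches, and the Sesn1 shares rest on few reads.

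Trp53 itself showed no call against siCtrl. It stood at 20.0 and 36.1 CPM in siCtrl, 25.2 and 47.1 under siPaf1, 12.8 and 26.7 under siCdc73 and 35.4 under siSki8 in 3'READS. Every batch 2 library lay above every batch 1 library, and within each batch siPaf1 was highest and siCdc73 lowest. The log2 change was 0.36 under siPaf1, -0.53 under siCdc73 and -0.07 under siSki8 (SE 0.28, 0.29 and 0.36, edgeR adjusted p = 0.395, 0.205 and 0.999). In the direct comparison Trp53 was higher under siPaf1 than under siCdc73 by 0.89 (SE 0.28, edgeR adjusted p = 0.0482), but leaving out any 1 of the 6 siCtrl, siPaf1 and siCdc73 libraries moved the adjusted p above 0.05, to between 0.0534 and 0.219.

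The Trp53 reads came from 2 main sites on the plus strand of chromosome 11, one in intron 1 of 10, 3469 bases from the transcription start site, and one at the annotated 3' end, 442 bases after the stop codon. Both windows hold AATAAA.
Trp53, intron 1, chr11:69397301-69397330: gagtacaaAATAAAactaaatcaaacataa
Trp53, 3' end, chr11:69405346-69405375: tattttacAATAAAattttgttatcactta
The intronic site had 74 and 34 reads in siCtrl, 95 and 119 under siPaf1, 14 and 39 under siCdc73 and 17 under siSki8. The 3' end had 58 and 344, 92 and 591, 45 and 337, and 294 reads. Together with a minor site in the same intron, intron 1 took 56.4% of Trp53 reads in siCtrl batch 1 and 9.95% in siCtrl batch 2, 52.8% and 17.0% under siPaf1, 23.7% and 10.4% under siCdc73 and 5.47% under siSki8. The gap between batches in siCtrl was larger than any difference between siRNAs within a batch. The log2 change of the intronic site was 0.36 under siPaf1 and -0.81 under siCdc73 (SE 0.58 and 0.62, edgeR adjusted p = 0.811 and 0.548).

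Mdm2, the ubiquitin ligase that restrains p53, did not pass in any comparison. In 3'READS it stood at 25.4 and 34.6 CPM in siCtrl, 25.3 and 36.7 under siPaf1, 24.8 and 36.3 under siCdc73 and 27.2 under siSki8. The siCtrl, siPaf1 and siCdc73 libraries of a batch lay close together, and siSki8 lay below the others of batch 2. The log2 changes were 0.04, 0.02 and -0.38 (SE 0.28, 0.28 and 0.36). In RNA-seq it stood at 239 and 235 CPM in siCtrl, 257 and 139.9 under siPaf1, 233 and 207 under siCdc73 and 140.1 under siSki8. The low values there were the siPaf1 and siSki8 libraries of batch 2, and the log2 changes were -0.30, -0.11 and -0.59 (edgeR adjusted p = 0.363, 0.729 and 0.284).

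Of the apoptosis genes, Bax, a pore-forming Bcl-2 family protein, stood at 179 and 121 CPM in siCtrl, 167 and 136 under siPaf1, 299 and 198 under siCdc73 and 149 under siSki8 in 3'READS. Both siCdc73 libraries lay above all others, and the log2 change under siCdc73 was 0.72 (SE 0.27, edgeR adjusted p = 0.0620), with 0.74 and 0.70 in the batches. Under siPaf1 it was 0.03 (0.26, edgeR adjusted p = 0.945). Bbc3, which encodes the BH3-only protein Puma, stood at 2.10 and 26.4 CPM in siCtrl, 2.58 and 38.0 under siPaf1, 3.04 and 26.5 under siCdc73 and 22.2 under siSki8. Its batch 2 libraries were 12.6-, 14.7- and 8.71-fold above batch 1 in siCtrl, siPaf1 and siCdc73. RNA-seq did not show this split, with 6.15 and 3.36 CPM in siCtrl, 12.2 and 6.98 under siPaf1, 6.35 and 4.79 under siCdc73 and 4.37 under siSki8, and batch 2 over batch 1 ratios between 0.547 and 0.754. The log2 change of Bbc3 under siPaf1 was 1.02 in RNA-seq (SE 0.44, edgeR adjusted p = 0.0748), on 85 and 20 reads against 44 and 20 in siCtrl, and 0.45 in 3'READS (0.34, edgeR adjusted p = 0.392).

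Phlda3, which competes with Akt for membrane lipids, stood between 31.9 and 61.7 CPM in all libraries of 3'READS. Its log2 changes were 0.16, 0.07 and -0.02 under siPaf1, siCdc73 and siSki8 (SE 0.28, 0.28 and 0.36), and its downstream site, 690 bases past the annotated end, took between 3.93% and 14.0% of its reads. Sesn1, a sestrin that restrains mTORC1, stood at 3.30 and 5.77 CPM in siCtrl, 2.07 and 4.83 under siPaf1, 1.95 and 5.11 under siCdc73 and 2.16 under siSki8. No Sesn1 level passed (log2 changes -0.44, -0.41 and -1.56, edgeR adjusted p = 0.576, 0.616 and 0.391). Its ends in exon 1 and intron 1 took 5 of 9 reads in siCdc73 batch 1 and 28 of 72 in batch 2, or 38.9% (95% Wilson interval 28.5% to 50.4%), against 0 of 22 in siCtrl batch 1, which allows a share of up to 13.6%, and 2 of 61 in batch 2. Under siPaf1 they took 4 of 16 reads in batch 1, or 25% (10.2% to 49.5%), and 1 of 73 in batch 2, and under siSki8 0 of 19, which allows up to 15.8%. One site in intron 1 passed under siCdc73 (edgeR adjusted p = 0.0250), on 0 and 0 reads in siCtrl and 4 and 15 under siCdc73, so no fold change is given. This site met the filter of 5% of the gene's reads only through its siCdc73 reads, so the filter favoured a rise there. The call was lost without either siCtrl library or either siCdc73 library. The main distal site of Sesn1 passed downward (edgeR adjusted p = 0.00502), with 22 and 59 reads in siCtrl and 3 and 43 under siCdc73. It was compared only with this intron 1 site and the site in exon 1, which also met the filter only through its siCdc73 reads. Both had 0 reads in both siCtrl libraries, so the filter favoured a fall of the distal site, and this is not a separate call. It was lost without either siCtrl library or the siCdc73 library of batch 2.

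**Figure D4:**
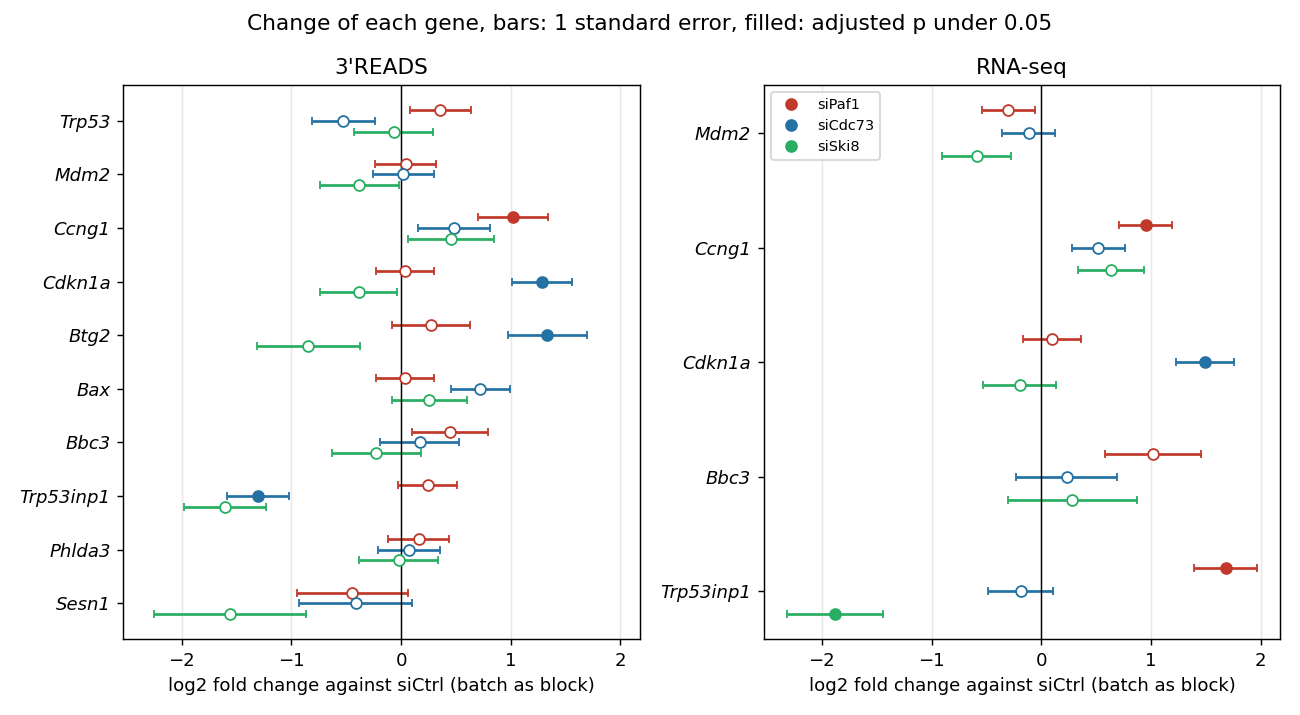
Points give the log2 fold change of each gene against siCtrl with the batch as a block and bars 1 SE, in 3'READS at left and RNA-seq at right. Filled points have an edgeR adjusted p under 0.05, which in 3'READS are Ccng1 under siPaf1 (1.02) and Cdkn1a (1.28), Btg2 (1.33) and Trp53inp1 (-1.31) under siCdc73.

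Counted over the list, 1 of the 10 genes rose under siPaf1 in 3'READS, where 18.8% of all genes tested passed (9.74% rose and 9.08% fell). Under siCdc73 2 rose and 1 fell, with 22.5% of all genes passing (10.8% up and 11.8% down), and under siSki8 0 passed, with 0.151% (0.0795% and 0.0715%). In RNA-seq 2 of 5 rose under siPaf1, where 32.5% of all genes passed (16.3% up and 16.2% down). There 1 of 5 rose under siCdc73, with 39.9% passing (19.4% and 20.5%), and 1 of 5 fell under siSki8, with 5.43% passing (2.93% and 2.5%). Set against siCdc73 directly, siPaf1 gave 2 higher and 1 lower of 10 in 3'READS, where 14.4% of all genes passed (8.08% and 6.3%), and 1 higher and 1 lower of 5 in RNA-seq, where 28.2% passed (14.6% and 13.6%). With so few genes, these counts lie near the shares of all genes in most comparisons. The median log2 change of the 10 genes in 3'READS was 0.20 under siPaf1, 0.12 under siCdc73 and -0.30 under siSki8, against 0.08, -0.02 and -0.05 for all genes. The 10 genes did not move as a set: under siCdc73 their changes ran from the fall of Trp53inp1 to the rise of Btg2. Without the block, 0 of 12579 genes passed in 3'READS under siPaf1, siCdc73 or siSki8, while 1703, 1929 and 419 had an unadjusted p under 0.05, and DESeq2 called 491, 713 and 0 (3.9%, 5.67% and 0%), with Cdkn1a and Trp53inp1 among those of siCdc73. In RNA-seq 0 of 6521 passed, with 1156, 1377 and 361 at an unadjusted p under 0.05 and 390, 545 and 5 called by DESeq2 (5.98%, 8.36% and 0.0767%), none of them among the 5 genes. For siPaf1 against siCdc73 edgeR without the block called 0 in either assay, 1298 and 859 had an unadjusted p under 0.05, and DESeq2 called 218 (1.73%) and 163 (2.5%), with Trp53inp1 among the former.

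A wider list of 45 other known p53 targets moved in both directions as well. Of the 42 tested in 3'READS, 4 rose and 1 fell under siPaf1, 9 rose and 6 fell under siCdc73 and 0 passed under siSki8, where 9.74% and 9.08%, 10.8% and 11.8%, and 0.0795% and 0.0715% of all genes rose and fell. Of the 28 tested in RNA-seq, 4 rose and 4 fell under siPaf1, 6 rose and 9 fell under siCdc73 and 0 rose and 4 fell under siSki8, where 16.3% and 16.2%, 19.4% and 20.5%, and 2.93% and 2.5% of all genes rose and fell. Without the block 0 passed edgeR's test, and in 3'READS 2, 11 and 2 and in RNA-seq 4, 8 and 5 had an unadjusted p under 0.05. The median log2 change in 3'READS was 0.21, 0.07 and -0.22, and in RNA-seq -0.12, -0.13 and -0.37, against medians of all genes between -0.05 and 0.08. Fdxr, ferredoxin reductase, followed the pattern of Cdkn1a in RNA-seq, at 28.4 and 44.2 CPM in siCtrl, 30.2 and 35.6 under siPaf1, 110.4 and 194 under siCdc73 and 20.96 under siSki8 (log2 change 2.05 under siCdc73, edgeR adjusted p = 2.8e-07). Ei24, which encodes a membrane protein of autophagy, rose under siPaf1 in RNA-seq, from 40.8 and 39.7 CPM to 138 and 93.9 (log2 change 1.51, edgeR adjusted p = 2.59e-05), and in 3'READS by 2.38 (edgeR adjusted p = 0.000595). Gdf15, a stress-induced secreted factor, fell under siPaf1 and siCdc73 in RNA-seq, from 236 and 249.7 CPM to 122 and 91.1, and to 77.1 and 72.8 (log2 changes -1.20 and -1.70, edgeR adjusted p = 0.000237 and 1.99e-06). Zmat3, an RNA-binding protein, fell under siCdc73 in 3'READS from 172 and 160.2 CPM to 79.3 and 62.9 (log2 change -1.23, edgeR adjusted p = 0.00434), while it stood at 173 and 172 under siPaf1.

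Of the genes that regulate p53 or its RNA, 28 were tested in 3'READS and 13 in RNA-seq. In 3'READS 1 rose and 2 fell under siPaf1, 4 rose and 4 fell under siCdc73 and 0 passed under siSki8, and in RNA-seq the counts were 4 and 3, 2 and 3, and 0. Of all genes, 18.8%, 22.5% and 0.151% passed in 3'READS and 32.5%, 39.9% and 5.43% in RNA-seq. Atr, a kinase of the replication stress response, fell in RNA-seq from 133 and 148 CPM in siCtrl to 36.1 and 37.7 under siPaf1 and 34.8 and 24.9 under siCdc73 (log2 changes -1.94 and -2.23, edgeR adjusted p = 8.88e-07 and 9.09e-08). Setd8, which methylates histone H4 and p53, fell from 307 and 217 CPM to 105 and 83.0 under siPaf1 and to 94.9 and 43.4 under siCdc73 (log2 changes -1.46 and -1.97, edgeR adjusted p = 2.97e-05 and 3.57e-07). Rbm38, an RNA-binding protein that is itself a p53 target, stood at 22.5 and 18.3 CPM in siCtrl and rose to 49.5 and 30.01 under siPaf1 and to 88.2 and 80.4 under siCdc73 (log2 changes 0.95 and 2.05, edgeR adjusted p = 0.00817 and 7.4e-07).

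Cell cycle genes known to be repressed by p21 through the DREAM complex moved one way under both siPaf1 and siCdc73. Of the 33 tested in 3'READS, 0 rose and 31 fell under siPaf1 and 0 rose and 29 fell under siCdc73, where 9.08% and 11.8% of all genes fell. All 19 tested in RNA-seq fell after either, where 16.2% and 20.5% of all genes fell. Under siSki8 0 passed in either assay. Their median log2 change was -2.00 under siPaf1 and -1.56 under siCdc73 in 3'READS and -2.02 and -1.76 in RNA-seq. Without the block 0 passed, with 26 and 23 of 33, and 19 and 15 of 19, at an unadjusted p under 0.05. Mcm2, a subunit of the replicative helicase, stood at 445 and 395 CPM in siCtrl in 3'READS, 62.7 and 38.1 under siPaf1, 181 and 156 under siCdc73 and 295 under siSki8. Cdk1, the mitotic kinase, stood at 136 and 352 CPM in siCtrl, 33.0 and 32.9 under siPaf1, 28.4 and 46.4 under siCdc73 and 292 under siSki8. Cdkn1a RNA did not pass under siPaf1 and rose under siCdc73, and p21 protein was not measured. The part of Cdkn1a in the fall of these genes was not tested.

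Across the 7 3'READS libraries, the 3 tested genes most like each of Trp53, Cdkn1a and Trp53inp1 were found by Pearson's r of log2 CPM over 12579 genes. For Trp53 these were 1110059G10Rik, Tardbp and Zcchc11 (r = 0.991, 0.986 and 0.977), for Cdkn1a Tspan6, Fuca2 and Rin3 (0.990, 0.987 and 0.976) and for Trp53inp1 Fbln5, Pik3cd and Satb1 (0.971, 0.968 and 0.965). With 7 points that share batches and so many genes searched, values this high are a description only. Rin3 stood at 50.6 and 36.2 CPM in the siCdc73 libraries against 12 and 6.15 in siCtrl, and Fbln5 at 23.5 and 12 against 83.1 and 48.7.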

How the data were processed

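RNA-seq and 3'READS, each in 7 libraries, were analysed here, and ChIP-seq samples were not used. The authors counted RNA-seq reads over the coding region of RefSeq genes and deposited counts and RPKM, and deposited 3'READS counts of PASS reads per pA site (mm9), with Bowtie2 named in the submitters' processing notes. Counts were summed per gene over sense sites and tested with edgeR 4.0.16 (R 4.3.3; TMM, filterByExpr, quasi-likelihood test, Benjamini-Hochberg adjustment), with DESeq2 1.42.0 as an alternative. RPKM were used only to order genes by level. Groups came from the labels, and the main model held the siRNA only. The labels give a shared batch, and same-batch libraries deviated together (r between 0.620 and 0.748 in RNA-seq and between 0.432 and 0.610 in 3'READS). A fit with batch as a replicate block had been planned as an alternative. The main model called 0 genes, and the values in the Results come from the fit with the block unless stated. Site tests used sites with 5% of the gene's reads, in genes with a mean of 20 reads per library. They compared a site with the other such sites of its gene, or the 2 most used last-exon sites with each other. The 2 sites and the 5% share were taken over all 7 libraries together, siRNA libraries included. Windows of 30 bases came from the mm9 genome with GENCODE vM1 annotation. The 10 genes were named by list. From the other lists up to 3 called genes per direction and comparison were eligible, those with the smallest adjusted p in the fit with the block. They also had to change the same way in every batch compared. The 10 genes and all lists were chosen with earlier results of these data known. Scripts were tested on simulated data. Totals per library limit precision to counting error on molecules without unique identifiers.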

Additional observations from a re-analysis of the deposited data

How the results depend on the processing

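Without the block, edgeR called 0 genes or gene pairs and 7 (siPaf1), 14 (siCdc73) and 0 (siSki8) sites. The replicate block, with batch as the pairing, gave 2122, 2601, 354 and 1841 genes in RNA-seq (siPaf1, siCdc73, siSki8, and siPaf1 against siCdc73), 2367, 2832, 19 and 1809 in 3'READS, 310, 196 and 14 gene pairs of sites, and 1435, 1208 and 11 sites. DESeq2 called 390, 545, 5 and 163 genes in RNA-seq and 491, 713, 0 and 218 in 3'READS. With no filter on low counts edgeR called 149, 225, 1 and 8 genes in RNA-seq and, in 3'READS, 20 under siPaf1 and 22 under siCdc73. For site usage a minimum of 50 reads left 0 and 3 calls under siPaf1 and siCdc73, and no filter on shares gave 141 and 200. Leaving out 1 library at a time, without the block, gave 0 to 34 genes under siPaf1 in RNA-seq, 0 to 7 sites under siPaf1 and 0 to 20 under siCdc73. The causes were not tested. The change of Btg2 under siCdc73 in 3'READS ran from -0.16, without the siCdc73 library of batch 2, to 2.34. Of 26 values called with the block or by DESeq2, it was the 1 with a change of sign, and of 100 other values 59 changed sign and 10 were called under some alternative. Few reads limit Sesn1, Bbc3 in RNA-seq and the upstream sites of Ccng1.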
